A study of Mus musculus with 2 samples.

Results

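The miR-148/miR-152 family is a set of microRNAs (miRNAs) with the same seed, made in the mouse from the separate genes Mir148a, Mir152 and Mir148b. Its members were chosen by gene name: the rows of these 3 genes were taken from the 2202 miRNA genes counted in each library. All 3 were found, and all 3 passed the limit of 10 reads in each library that defines detection here, as did 337 genes in all. Small RNA of the adrenal gland, the gland that makes steroid hormones in its cortex and catecholamines in its medulla, was sequenced by microRNA-seq of total RNA below 30 nucleotides. The labels give 1 group of 2 libraries, both from female mice of the strain B6CASTF1/J aged 25 days, a hybrid of C57BL/6 and CAST parents. The glands carry the numbers of separate animals but a single donor identifier, no group was treated, and no genotype differs between them. Library 2 held 3912280 reads on the strand of miRNA genes and library 1 held 2244073, so 1 read is worth 0.256 and 0.446 counts per 1000000 miRNA reads (CPM) in libraries 2 and 1. Whole glands were used, so fewer cells of a type and less RNA per cell cannot be told apart, and differences between the libraries may be technical.

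A miRNA guides Argonaute proteins to messenger RNAs, mostly through its seed, bases 2 to 8 from the 5′ end, and lowers their stability and translation. Members that share a seed can act on the same messenger RNAs. The miR-148/miR-152 family is known for acting on the mRNA of the maintenance DNA methyltransferase Dnmt1. miR-148a is also known for acting on the mRNA of the cholesterol exporter Abca1. The adrenal cortex uses cholesterol to make steroids. No messenger RNA was measured here.

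The mature 3p RNAs are shown because their shared seed defines the family and because the bases that differ decide whether a short read can be given to 1 gene. Capitals mark the seed, and the sequences are those of RefSeq (GRCm38.p6), whose table held all 3 genes.
miR-148a-3p: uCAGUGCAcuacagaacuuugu
miR-152-3p: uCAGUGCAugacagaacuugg
miR-148b-3p: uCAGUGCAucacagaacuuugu

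The seed CAGUGCA was found in 3 of the 1738 mature RNAs of the RefSeq table, which are these 3. Counted from 1 at the 5′ end, miR-148a-3p differed from miR-148b-3p by C9U and U10C, with the other 20 of 22 bases identical. It differed from miR-152-3p by C9U, U10G and U20G over the 21 bases compared. miR-148b-3p and miR-152-3p differed by C10G and U20G. The longest run of bases shared by any pair was 12, between miR-148a-3p and miR-148b-3p, so a read of full length spans the bases that tell the members apart. How many mismatches the authors' mapping allowed is not given in the sources used here. No stretch of 18 bases of any of the 6 mature RNAs of the family (3p and 5p) was found in another gene among 141767 GENCODE M21 transcripts, and no stretch of 20 bases of the hairpins was found at another miRNA gene.

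The counts are per gene and hold reads of either arm of the hairpin. The hairpin of Mir148a shows the span that was counted, with both mature RNAs, 5p and then 3p, in capitals.
Mir148a hairpin: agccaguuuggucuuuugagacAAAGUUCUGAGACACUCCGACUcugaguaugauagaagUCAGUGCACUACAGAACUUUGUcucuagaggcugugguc
The 5p RNAs do not all share a seed, which is in capitals here.
miR-148a-5p: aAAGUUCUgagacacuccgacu
miR-152-5p: uAGGUUCUgugauacacuccgacu
miR-148b-5p: gAAGUUCUguuauacacucaggcu
The seed AAGUUCU was shared by miR-148a-5p and miR-148b-5p and by no other RNA of the table, and that of miR-152-5p was found in miR-152-5p alone. Reads of the 2 arms were not separated in the deposited counts, so a level below is that of a gene and not of its 3p RNA.

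The genes lie on 3 chromosomes (mm10). Mir148a (ENSMUSG00000065505.1) spans chr6:51269812-51269910 on the minus strand. It lies in no annotated gene, and the nearest protein-coding gene, Nfe2l3, is 162760 bases away. Mir152 (ENSMUSG00000065515.1) spans chr11:96850393-96850465 on the plus strand, in an intron of Copz2 and on its strand. Mir148b (ENSMUSG00000065560.1) spans chr15:103285125-103285221 on the plus strand, in an intron of Copz1 and on its strand. Copz1 and Copz2 encode alternative zeta subunits of the coatomer, the coat of vesicles that move between the Golgi and the endoplasmic reticulum. No other miRNA gene lies closer than 65234 bases to any member, so none of the 3 has a close clustered neighbour, and none overlaps a miRNA gene on the other strand.

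The first question was how much of each member the gland held. Mir148a, the member without a host gene, had 2172 reads in library 2 and 1390 in library 1, which are 555 and 619 CPM. It was the most abundant of the family in both libraries, with a mean of 587 ± 45.4 CPM (SD, n = 2). Mir152, in the Copz2 intron, had 882 reads in library 2 and 677 in library 1, or 225 and 302 CPM, with a mean of 264 ± 53.9 CPM (SD, n = 2). Mir148b, in the Copz1 intron, was the lowest in both libraries. It had 405 reads in library 2 and 352 in library 1, or 103.5 and 157 CPM, with a mean of 130 ± 37.7 CPM (SD, n = 2). The order Mir148a, Mir152, Mir148b held in each library, and each neighbouring pair in it differed by more than the spread between libraries: the lower library of Mir148a lay above both of Mir152, and the lower library of Mir152 lay above both of Mir148b. A read covers a whole mature RNA of 21 to 24 bases, so levels were set side by side without scaling by length.

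**Figure D1:**
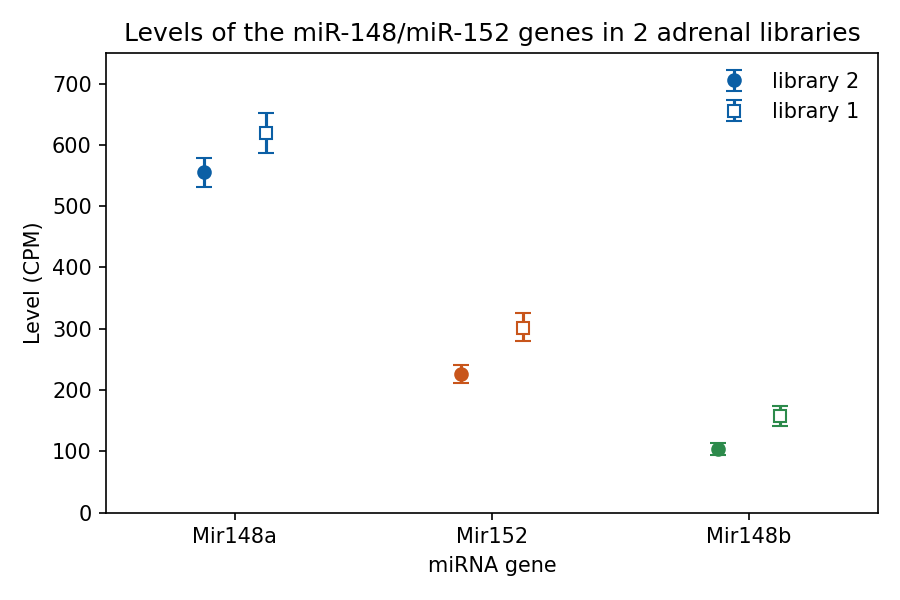
Level in CPM of Mir148a, Mir152 and Mir148b, with library 2 as filled circles left of library 1 as open squares and bars for exact 95% Poisson intervals, which cover counting error only. The 3 genes keep the same order in both libraries and their values do not overlap, with Mir148a at 555 and 619 CPM, Mir152 at 225 and 302 CPM and Mir148b at 103.5 and 157 CPM.

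Counting error was small beside these gaps. The 95% Poisson interval of Mir148a ran from 532 to 579 CPM in library 2 and from 587 to 653 CPM in library 1. That of Mir152 ran from 211 to 241 CPM in library 2 and from 279 to 325 CPM in library 1. That of Mir148b ran from 93.7 to 114 CPM in library 2 and from 141 to 174 CPM in library 1. For each member the intervals of the libraries did not overlap on this scale, which divides by miRNA reads alone. The reads came through PCR and carry no molecular identifiers, so intervals here cover counting error only and can be too narrow even for that.

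Among the 337 detected genes, the median gene had a mean of 156 CPM. Mir148a ranked 102 in library 2, 100 in library 1 and 105 by the mean. Mir152 ranked 148 in library 2 and 130 in library 1, and Mir148b ranked 184 in library 2 and 168 in library 1. Mir148a and Mir152 thus lay above the median gene and Mir148b, with 47.8% of detected genes below it, just under it. Together the members had 3459 reads in library 2 and 2419 in library 1. They made up 0.0884% of the miRNA reads in library 2 (95% Wilson interval 0.0855 to 0.0914%) and 0.108% in library 1 (0.104 to 0.112%), a mean of 0.0981 ± 0.0137% (SD, n = 2).

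The split of the family reads does not depend on how the libraries are scaled to each other. Mir148a took 62.8% of the family reads in library 2 (95% Wilson interval 61.2 to 64.4%) and 57.5% in library 1 (55.5 to 59.4%). Mir152 took 25.5% in library 2 (24.1 to 27.0%) and 28.0% in library 1 (26.2 to 29.8%). Mir148b took 11.7% in library 2 (10.7 to 12.8%) and 14.55% in library 1 (13.2 to 16.0%). Mir148a thus held most of the family reads in both libraries, Mir152 about 1 read in 4 and Mir148b the smallest part.

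**Figure D2:**
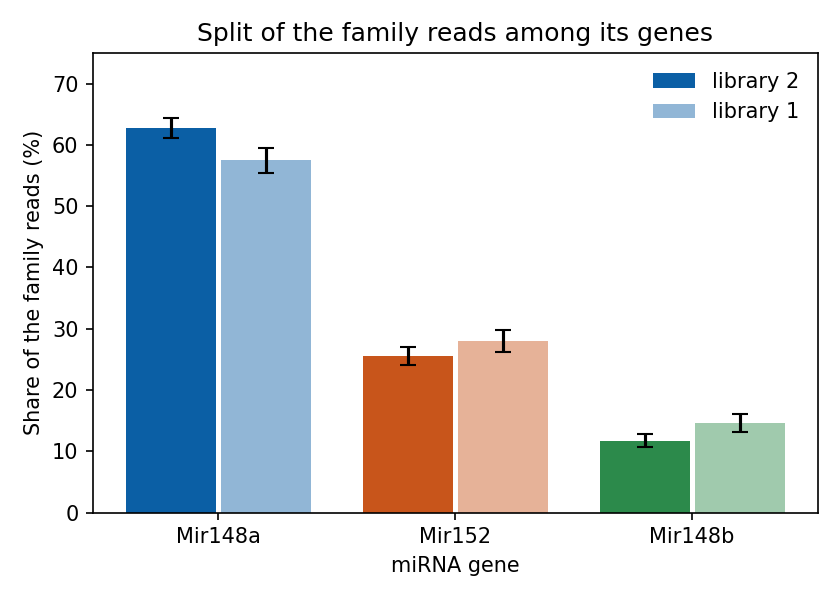
Share of the summed family reads in percent for each gene, with library 2 as the dark bar left of library 1 as the pale bar and 95% Wilson intervals. Mir148a holds 62.8% in library 2 and 57.5% in library 1, and Mir148b 11.7% and 14.55%.

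The ratios between members show the same shift in another form. Mir148a had 5.36 times the reads of Mir148b in library 2 (95% interval 4.82 to 5.96) and 3.95 times in library 1 (3.51 to 4.44). The ratio was 1.36-fold higher in library 2, with an interval from 1.16 to 1.59. Mir148a had 2.46 times the reads of Mir152 in library 2 and 2.05 times in library 1, a ratio 1.20-fold higher in library 2 (1.06 to 1.35). Both intervals lay above 1, so in counting error Mir148a was a larger part of the family in library 2. Mir152 had 2.18 times the reads of Mir148b in library 2 and 1.92 times in library 1, and the interval of the fold between the libraries, from 0.951 to 1.35, held 1. These intervals set reads of 2 libraries side by side and hold no spread between animals.

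The second question was how far the members differed between the libraries. Across the 411 genes whose reads in both libraries summed to at least 10, the reads were compared by an exact binomial test (two-sided) on library sizes scaled by TMM, with Benjamini and Hochberg adjustment over all 411. The test compares these 2 libraries and not conditions. It called 58.4% of all genes tested, 29.0% as lower in library 2 and 29.4% as higher. Of the called genes, 50.4% were higher in library 2, against 61.7% with no filter on low counts and 66.1% with all reads as library size. Against that background, 2 of the 3 members were called, both lower in library 2, so a call says little about a member on its own.

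Mir148b had the largest difference of the 3, with a log2 ratio of library 2 over library 1 of -0.51 (95% interval -0.72 to -0.31, adjusted p = 3.445e-06 in the exact binomial test). It was lower in library 2 by 1.43-fold. Mir152 was also lower in library 2, by 1.26-fold, with a log2 ratio of -0.33 (-0.48 to -0.19, adjusted p = 1.75e-05 in the exact binomial test). Its call was lost with no filter on low counts (log2 ratio -0.17, adjusted p = 0.0742) and with all reads as library size (-0.11, adjusted p = 0.225). Mir148a had a log2 ratio of -0.072 (-0.17 to 0.025, adjusted p = 0.215), which did not pass. Its interval allows folds of library 2 over library 1 from 0.889 to 1.02. The log2 ratio of Mir148a turned to 0.010 where at least 100 reads in each library were required and to 0.094 with no filter. With all reads as library size it was 0.16 and passed (adjusted p = 0.00356, exact binomial test). With scaling by miRNA reads alone it was -0.16 and passed as well, so no direction is given for Mir148a. The median log2 ratio over all genes tested was -0.074 with TMM scaling and the filter. It was 0.067 over the 751 genes tested without the filter and 0.154 with all reads as library size.

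**Figure D3:**
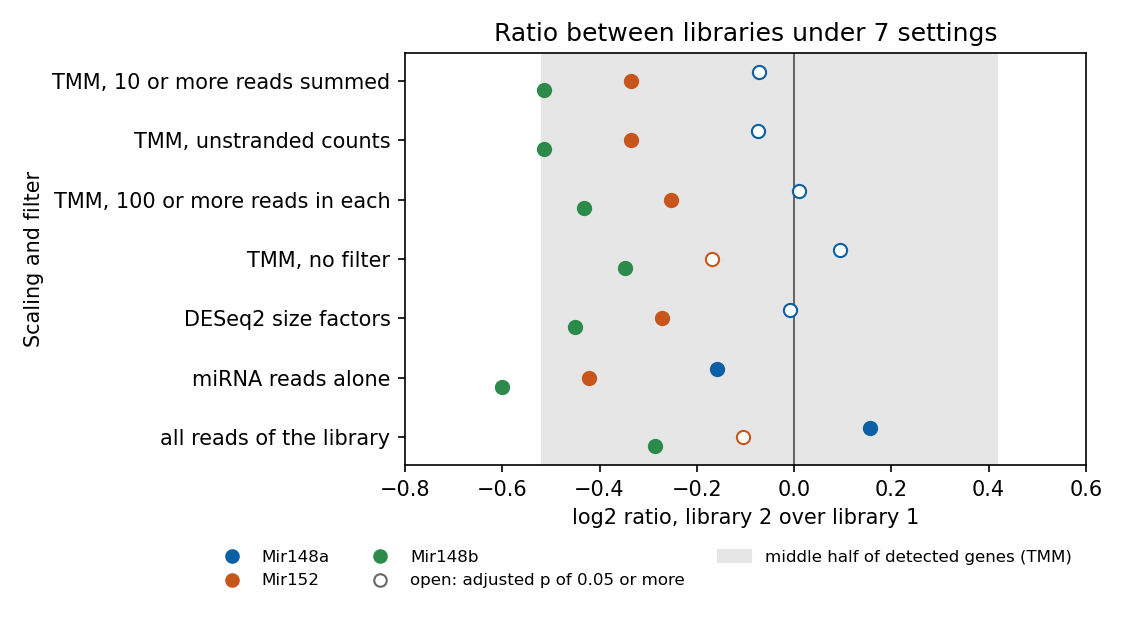
Log2 ratio of library 2 over library 1 (horizontal axis) for the 3 genes under 7 settings of scaling and filter (rows), with open circles for an adjusted p of 0.05 or more and a grey band for the interquartile range of all detected genes under the first setting. Mir148b stays below 0 with filled circles in every row, Mir152 stays below 0 with open circles in 2 rows, and Mir148a lies on both sides of 0.

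The detected genes had a median log2 ratio of -0.089 and an interquartile range from -0.52 to 0.42. The log2 ratios of all 3 members lay inside that range, that of Mir148b at its lower edge. The median size of a log2 ratio, in either direction, was 0.47. Of the detected genes, 92.9% had a larger ratio in either direction than Mir148a, 63.8% a larger one than Mir152 and 45.1% a larger one than Mir148b. With TMM scaling, no member passed the test with a fold of 1.5 required as well, against 31.4% of all genes tested. With scaling by miRNA reads alone, Mir148b did (log2 ratio -0.60, adjusted p = 4.77e-08 in the exact binomial test). The median log2 ratio of the members was -0.33, against -0.074 over all genes tested. With TMM scaling, Mir148a and Mir152 thus differed less between the libraries than the median detected gene, and Mir148b about as much.

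**Figure D4:**
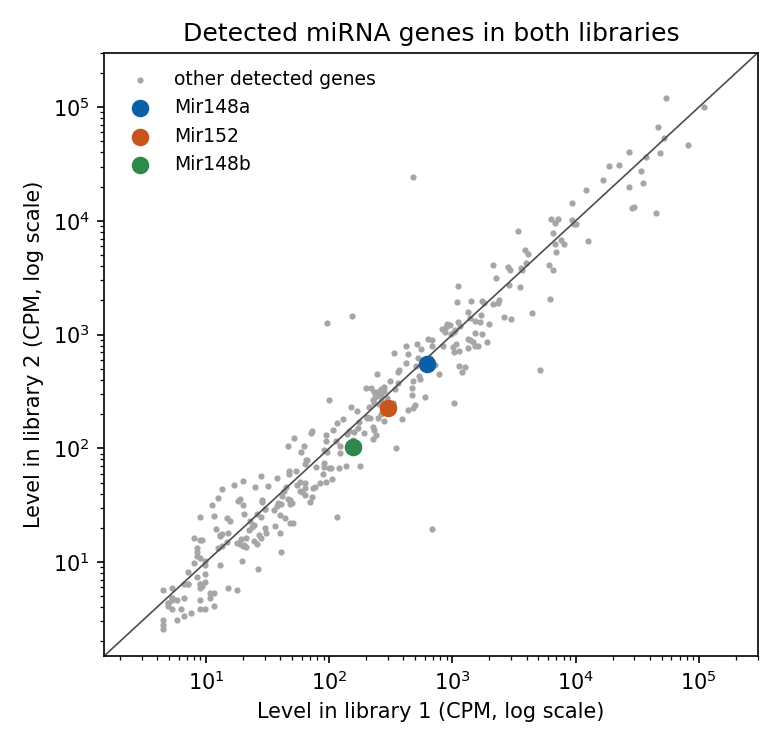
Level in library 2 against level in library 1 (CPM, both axes on a log scale) for the detected genes, with the 3 members in colour and a line of equal levels. The members lie near the line, Mir148a closest at 555 CPM in library 2 and 619 CPM in library 1.

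Markers of other cell types moved between the libraries as well. All 3 erythroid markers were detected, and their summed level was 25715 CPM in library 2 and 681 CPM in library 1, nearly all of it Mir451a. Mir451a and Mir144 were called higher in library 2, and Mir486 went the other way, with 22.0 CPM in library 2 and 47.7 CPM in library 1. The single liver marker Mir122 had 490.5 CPM in library 2 and 5185 CPM in library 1. The endothelial marker Mir126a had 121007 CPM in library 2 and 53763 CPM in library 1. Mir451a, Mir144 and Mir126a were thus higher in library 2, and Mir486 and Mir122 in library 1. The 6 smooth muscle and fibroblast markers summed to 41834 CPM in library 2 and 28940 CPM in library 1, with 5 of 6 detected. Most of that sum was Mir143, called higher in library 2 together with Mir199b. Mir214 was called lower (log2 ratio -0.71) and Mir145a had a log2 ratio of -0.016. Mir199b is among 3 genes of this list that share 20 bases with another miRNA gene, so its counts are uncertain. The 5 leukocyte markers, all detected, summed to 1612 CPM in library 2 and 2126.5 CPM in library 1. They went both ways: Mir342, Mir150 and Mir223 were called lower in library 2, Mir142 was called higher (log2 ratio 0.85), and Mir155 was not called (0.061). The 9 markers of epithelium and kidney, 6 of them detected, summed to 888.5 CPM in library 2 and 1498 CPM in library 1, with 3 called lower in library 2 and 6 not called. Of the 8 striated muscle markers none was detected, and Mir1a-1, Mir1a-2, Mir133a-1, Mir133a-2 and Mir208a had 0 reads in both libraries, with 4 of the 8 sharing 20 bases with another miRNA gene. The 3 markers of exocrine pancreas had 4 reads in each library, and Mir216b had 0. Of the neuroendocrine list, which marks the medulla of this gland, 6 of 6 genes were detected, and they summed to 43382 CPM in library 2 and 42237 CPM in library 1. Mir375 made up most of both sums. With TMM scaling all 6 were called higher in library 2, 4 of them at 1.5-fold, with a median log2 ratio of 0.79. The call of Mir375 rests on that scaling: its log2 ratio was 0.047, while it had 36561 CPM in library 2 and 37574 CPM in library 1. Mir7-1 and Mir7-2 each share 20 bases with another miRNA gene, so their counts are uncertain. The lists hold no marker of the adrenal cortex. The part of these cell types in the levels of Mir148a, Mir152 and Mir148b was not tested.

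The genes nearest in level to each member were found by the Euclidean distance in log2(CPM + 1) over the 2 libraries, among 334 other detected genes. Nearest to Mir148a were Mir497, of the miR-15/16 family, at a distance of 0.19, then Mir101b at 0.24 and Mir376a of the imprinted Dlk1-Dio3 cluster at 0.29. Mir497 had 623 CPM in library 2 and 660 CPM in library 1. Nearest to Mir152 were Mir421 on chromosome X at 0.010, Mir338 at 0.081 and Mir196a-2 of the Hoxc cluster at 0.092. Mir421 had 885 reads in library 2 and 681 in library 1, within a few reads of Mir152 in each. Nearest to Mir148b were Mir329, also of the Dlk1-Dio3 cluster, at 0.15, Mir5099 at 0.18 and Mir574 at 0.34. Mir329 had 109 CPM in library 2 and 172 CPM in library 1. These genes are alike in level only, over 2 libraries. The counts of Mir101b and Mir196a-2 are uncertain, since each shares 20 bases with another miRNA gene.

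Other miRNAs known for acting on mRNAs of cholesterol handling, a role for which miR-148a is studied, did not move in 1 direction. Of 11 such genes 10 were tested, and 4 were called higher and 3 lower in library 2, where 58.4% of all genes tested were called. Their log2 ratios had a median of 0.20, against -0.074 over all genes tested. The most abundant, Mir27b, had 3684 CPM in library 2 and 6545 CPM in library 1, a log2 ratio of -0.74. Mir106b had 1578 CPM in library 2 and 1336 CPM in library 1, a log2 ratio of 0.33. Mir27a had 921.5 CPM in library 2 and 1328 CPM in library 1, a log2 ratio of -0.44. Mir148a, at 555 CPM in library 2 and 619 CPM in library 1, thus lay below these 3, the most abundant of the list, in both libraries. It lay above all the other genes of the list in library 1, and in library 2 above all of them but Mir144 and Mir185. The largest differences of the list were those of Mir185 (log2 ratio 3.81) and Mir144 (3.33), both higher in library 2 and named here after their values were seen. Mir144 is also one of the erythroid markers above. Of the 11 genes, 5 share 20 bases with another miRNA gene, Mir27a and Mir27b among them, and their counts are uncertain.

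The miR-29 genes are known for acting on the mRNAs of the de novo DNA methyltransferases, as the miR-148/miR-152 family is for that of Dnmt1. All 4 were tested, of which 2 were called higher and 1 lower in library 2, against 58.4% of all genes tested that were called. Their log2 ratios had a median of 0.099, against -0.074 over all genes tested. Mir29a had 3665 CPM in both libraries and was called higher in library 2 with TMM scaling (log2 ratio 0.086), a call that was lost with scaling by miRNA reads alone. Mir29c had 1115 CPM in library 2 and 826 CPM in library 1, and Mir29b-1 had 12.3 CPM in library 2 and 40.55 CPM in library 1. Mir29a and Mir29c were thus above Mir148a in both libraries. Mir29c and both Mir29b genes share 20 bases with another miRNA gene, so their counts are uncertain.

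No read lay on the strand opposite to Mir148a, Mir152 or Mir148b in either library. A count of 0 allows up to 3 reads, or 0.767 CPM in library 2 and 1.34 CPM in library 1. The unstranded counts of the members equalled the counts on their own strand, so the choice of strand changes their levels only through the library size.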

How the data were processed

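The authors deposited 1 table of raw read counts per miRNA gene for each library, with no normalization and no pooling. The genome build was mm10, per the labels, with gene models of GENCODE M21, per the deposited description. Which aligner and counter were used is not given in the sources used here. No table has a header. The column with the larger stranded total was taken as reads on the gene's strand, a meaning inferred from layout and values. Rows with no gene name stayed out of library sizes and tests. In libraries 2 and 1, 27.8% and 33.8% of reads were unmapped, 27.5% and 28.4% mapped to several places, and 9.53% and 9.57% lay outside miRNA genes. Reads with CAST variants may map less well, which was not tested.

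All 2202 identifiers matched GENCODE M21. Levels are CPM over reads on the strand of miRNA genes. With 1 group, no quasi-likelihood test could be fitted. Genes with at least 10 reads over both libraries entered an exact binomial test (two-sided), with edgeR 4.0.16 TMM library sizes, Benjamini and Hochberg adjustment and a threshold of 0.05. The test was checked on simulated data that held counting error only. That check cannot show how the test behaves with spread between animals or with uncertain scaling. Log2 ratios have 0.5 read added, with 95% counting intervals. Intervals of member ratios are normal approximations on the log scale. Alternatives used DESeq2 1.42.0 size factors (R 4.3.3), library size alone, other filters, unstranded counts and other library sizes. Python 3.11.15 was used with scipy 1.17.1, pandas 2.3.3, matplotlib 3.10.9 and numpy 2.4.6.

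Named are the 3 members, the 3 genes nearest in level to each, up to 3 most abundant genes of each related list and marker genes. The members and lists were chosen with earlier results of these data known. The Mir130 and Mir301 genes of the closing part were named after their values were seen.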

Additional observations from a re-analysis of the deposited data

How the results depend on the processing

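Of 93 alternative values, 71 kept their direction and side of the threshold, moved by less than the SD or stayed within 1.5 times. Part of the 71 could not have come out otherwise. With 2 libraries, leaving out 1 always moves a mean by less than the SD. The split of the family reads could not change with unstranded counts, as no member had reads on the other strand. The 71 thus overstate how far the results hold. The log2 ratio of Mir148a was -0.16 and passed (adjusted p = 0.00323, exact binomial test) with scaling by miRNA reads alone. It reversed to 0.010 with 100 or more reads in each library, 0.094 with no filter and 0.16 with all reads as library size. The last of these also passed (adjusted p = 0.00356, exact binomial test), so Mir148a was called in opposite directions by scaling alone. Mir152 did not pass with no filter (-0.17) or all reads (-0.11), and Mir148b passed in all 6 alternatives, from -0.60 to -0.29. Only with scaling by miRNA reads alone (-0.60) did Mir148b also reach a fold of 1.5. In each of these only the scaling or the genes tested changed. A DESeq2 test was not run, since it could not be fitted with 1 group. Genes called at 1.5-fold numbered 82 in place of 129 with 100 or more reads in each library. Those lower in library 2 numbered 37 there and 43 with no filter, in place of 67, and 66.4% of 1.5-fold calls were higher in library 2 with no filter in place of 48.1%. Among the miR-29 genes, 1 in place of 2 was called higher with scaling by miRNA reads alone, and 0 in place of 1 lower with 100 or more reads in each library. With unstranded counts the level of Mir148a was 711 CPM, of Mir152 318 CPM and the family share 0.1185%. Per 1000000 reads of all kinds the levels were 185, 82.25 and 40.4 for Mir148a, Mir152 and Mir148b, and the share 0.0308%. Without Mir126a and Mir451a in the library size, Mir148a had 652 CPM. With the mean level alone as distance, 1 of the 3 nearest genes was shared for each member. No paired analysis was possible because the labels give 1 group.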

Other observations

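The last 6 bases of the family seed are AGUGCA, at bases 3 to 8. They stand 1 base earlier, at bases 2 to 7, in at least 7 other mature RNAs of the RefSeq table. Not every chromosome was searched, so 7 is a lower limit. Among the 7 are miR-130a-3p, miR-130b-3p and miR-301a-3p of the miR-130/301 family. No RNA of Mir301b is among them. Whether the RefSeq table held one was not checked, so this does not show that Mir301b lacks the 6 bases. In miR-130a-3p the 6 bases are shown in capitals.
miR-130a-3p: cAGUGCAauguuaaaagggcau
Mir130a had 5118 CPM in library 2 and 4128 CPM in library 1, Mir301 had 264 CPM and 100.3 CPM, and Mir130b had 233 CPM and 150 CPM in libraries 2 and 1. The other 4 genes, Mir130c, Mir6341, Mir6389 and Mir721, had 0 reads in both libraries. The 7 genes summed to 5615 CPM in library 2 and 4378 CPM in library 1, against 884 CPM and 1078 CPM for the 3 genes of the miR-148/miR-152 family. Whether the shared letters lead to shared messenger RNAs in the gland was not measured.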
